A study of Mus musculus with 6 samples.

Results

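The axoneme is the microtubule core of the motile cilium, and 50 genes that encode its parts or help to assemble it were followed through the libraries of mouse palatal shelves. They were taken by gene symbol from the 49492 genes of the deposited count table, and all 50 were found there. The symbols were chosen by a list drawn up with the values of these libraries known, so every count and fold change of the 50 genes below is a description of how they were picked and supports nothing. Genes were kept for testing by a filter on low counts, which 45 of the 50 passed. A gene can meet the filter through 1 group alone, so counts over the 45 genes are not counts over all 50.

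The series measured poly(A) RNA of palatal shelves, the outgrowths of the upper jaw that fuse into the secondary palate, from C57BL embryos at E14.5. In the 3 control libraries both alleles of Prmt1, which encodes the main enzyme that methylates arginines asymmetrically, carried loxP sites (PRMT1 fl/fl). The 3 deletion libraries had these alleles and Wnt1-Cre, a recombinase active in the neural crest and so in most palatal mesenchyme, but not in the palatal or nasal epithelium in which ciliated cells arise. The question of the series was which genes change when Prmt1 is lost.

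Motile cilia beat because dynein motors, held in outer and inner arms on the doublet microtubules, slide these doublets against each other. Radial spokes and a central pair of microtubules control the dyneins, and nexin links join neighbouring doublets. Ruler proteins set the spacing along the doublet, and tektins run inside the doublet wall. Cells with many motile cilia line the nasal passages and airways. They are set up by the coregulator Mcidas and the transcription factor Foxj1, whereas most other cells carry a single primary cilium, built by the same intraflagellar transport but without dynein arms.

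The libraries held 44919889 to 50022829 estimated counts. Libraries are named by the numbers in the table's columns, and values are given in the order 212, 213 and 220 for control and 208, 211 and 221 for deletion. Levels are CPM (counts scaled to a common library size, here by TMM), and fold changes are log2, deletion minus control, with the SE of edgeR's quasi-likelihood fit of 3 against 3 libraries. A gene was called higher or lower at an adjusted p under 0.05. Prmt1 stood at 258, 249.7 and 246 CPM in control and 201, 206 and 217 CPM in deletion libraries (-0.27 ± 0.05, edgeR adjusted p = 0.0113), in a tissue that also holds cells without Cre, and was not called without 213, 208 or 211. Control 220 differed from controls 212 and 213 in its sex markers. Xist was at 15.5 and 16.0 CPM in 212 and 213 against 3384 to 4487 CPM in the other 4 libraries, and 212 and 213 alone had Y-linked RNA (247 and 254 CPM against at most 0.402 CPM). Embryonic beta-globin (Hbb-y) divided by adult beta-globin was 0.0946 and 0.0779 in 212 and 213 and 0.191 to 0.320 in the rest. Libraries with the same sex markers could therefore be compared between groups only through control 220. In bulk RNA, fewer ciliated cells and less RNA per ciliated cell cannot be told apart.

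The cilium genes were highest in controls 212 and 213, lower in control 220 and lowest in the 3 deletion libraries. Their mean log2 CPM over the 45 tested genes was 1.71, 1.84 and 1.02 in control and 0.49, 0.49 and 0.22 in deletion libraries. Among these 45 genes, 22 were called lower in deletion libraries, where 3.37% of all 19284 tested genes were called lower. A single gene, Tekt2, was called higher, against a background of 3.65% (7.01% of all tested genes were called in either direction). Fold changes were below 0 in 42 of the 45, with a median of -1.29 and quartiles of -1.77 and -0.43, where all tested genes had a median of 0.00 and quartiles of -0.15 and 0.13. In 32 of the 45 every deletion library lay below every control, which held for 13.5% of all tested genes. Lower calls numbered 6, 11, 13 and 14 without 213, 208, 211 and 212, fits in which 0.802%, 1.25%, 1.58% and 2.30% of all tested genes were called lower, and 6 of the 22 (Dnah1, Dnah2, Dnah3, Tekt1, Crocc2 and Ccdc187) kept the call whichever library was left out. With the sex markers as a covariate, edgeR called 1 of the 45 lower (Crocc2), and 0.332% of all tested genes. A fit without controls 212 and 213 leaves control 220 alone in its group, with the spread taken from the deletion libraries. Only its fold changes are given here. Both fits compare the groups only through control 220, so they are the same comparison and not separate checks. Its median was -0.56, and 38 of the 45 fold changes were below 0, a count without a share of all tested genes beside it.

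**Figure D1:**
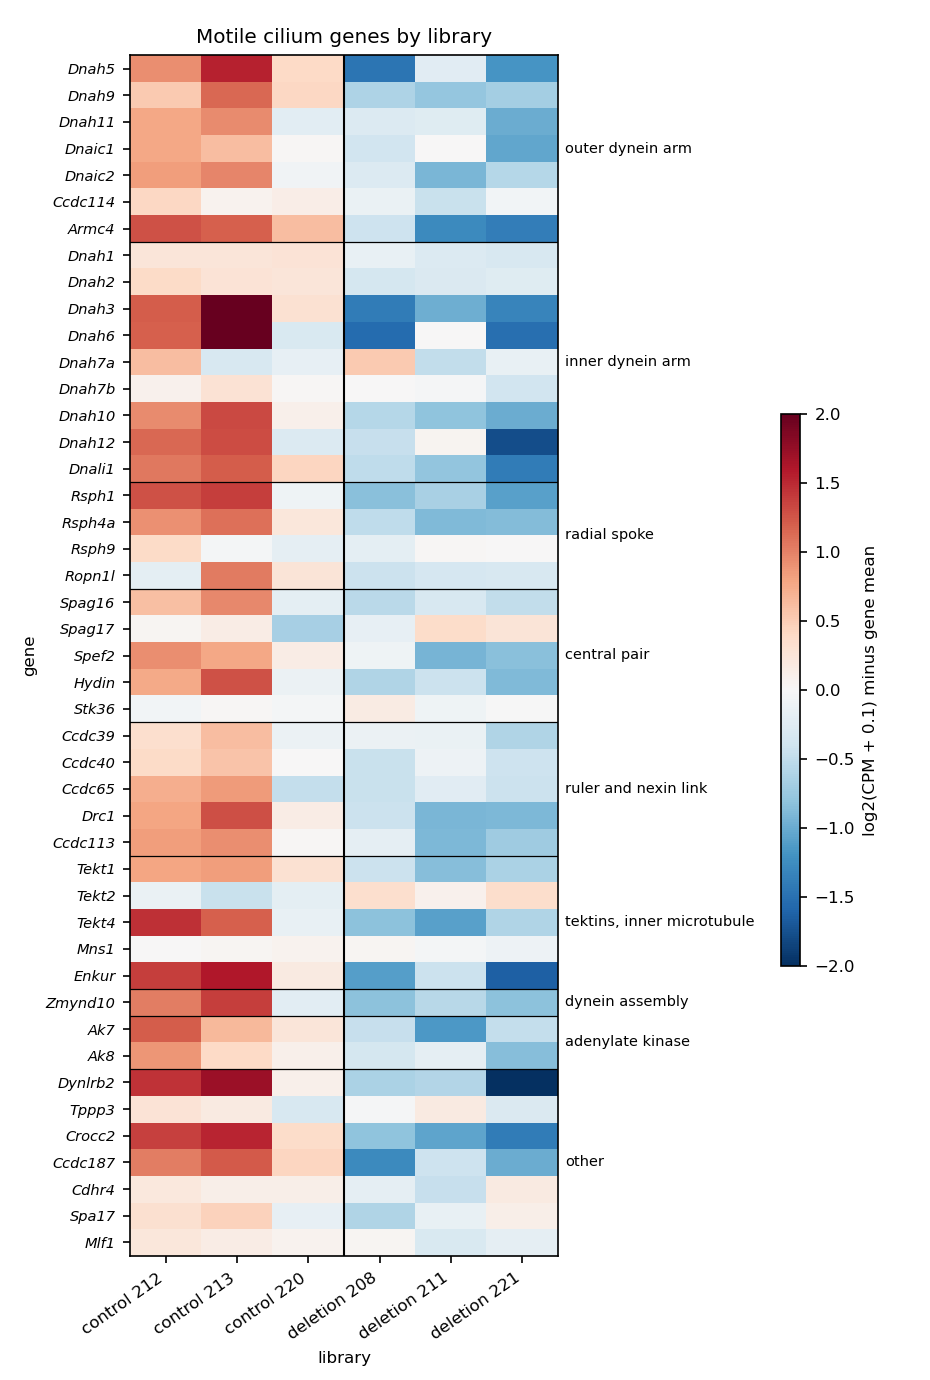
Heat map of the 45 tested cilium genes (vertical axis, grouped by role) in the 6 libraries (horizontal axis), coloured by log2(CPM + 0.1) minus the mean of the gene over the libraries, with the scale ending at 2 in either direction. Controls 212 and 213 are red for most genes, control 220 is close to white and the deletion libraries are blue, whereas Mns1, Stk36 and Dnah7b show little colour and Tekt2 runs the other way.

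Motile cilium promoters are known to carry binding sites of RFX factors, called X-boxes, and of Foxj1. Promoter windows from RefSeq (GRCm38.p6, 250 bases before to 50 after the start site) existed for 44 of the 50 genes and were searched on both strands. The 7-letter X-box arm GTTGCCA was found in 10 of the 44 genes (22.7%), where 5.02% of all 27025 genes with a window held it. Other ciliary lists held it at a similar share: 21.9% of intraflagellar transport genes and 23.8% of transition zone genes held it, as did 22.2% of the 18 cilium genes called lower and 23.1% of the other 26. A whole X-box, GTTNCC and GGNAAC with at most 3 bases between them, was found in 1 gene, Fam183b (2.27% against 0.936% of all genes), and in 9.38% of intraflagellar transport and 19.0% of transition zone genes. The forkhead core TGTTTAC was found in Ak7, Mlf1 and Sntn (6.82% against 4.05%). A match describes the letters only, and no binding was measured. The stretches below are shown because they set genes that were called lower (Drc1, Tekt1, Ak7) beside genes with the same letters that were not (Hydin, Mns1, Mlf1), with the only whole X-box. Each reads 5′ to 3′ along the strand of its gene, with the motif in capitals, and TGGCAAC is the X-box arm on the opposite strand.
Drc1, chr5:30281361-30281392 (+): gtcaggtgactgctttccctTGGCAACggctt
Tekt1, chr11:72361883-72361917 (-): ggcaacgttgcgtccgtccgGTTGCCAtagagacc
Ak7, chr12:105705831-105705877 (+): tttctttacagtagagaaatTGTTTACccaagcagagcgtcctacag
Hydin, chr8:110266943-110266976 (+): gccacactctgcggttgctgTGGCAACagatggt
Mns1, chr9:72438436-72438482 (+): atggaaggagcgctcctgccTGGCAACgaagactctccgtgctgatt
Mlf1, chr3:67373961-67374018 (+): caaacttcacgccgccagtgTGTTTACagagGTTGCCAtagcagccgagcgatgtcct
Fam183b, chr11:58801961-58801996 (-): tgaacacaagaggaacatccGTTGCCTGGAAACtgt
The motifs of Drc1, Tekt1, Hydin and Fam183b end 3 to 8 bases before the start site. Mlf1 holds both kinds of motif side by side. The stretch of Hydin also lies in an exon of the antisense transcript Gm26832.

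All 7 outer dynein arm genes lay lower in every deletion library than in every control, and 4 were called lower (median -1.29). Dnah5 (chr15:28203752-28472052, mm10, as are the gene positions below) encodes a heavy chain of the outer arm. It stood at 1.49, 2.30 and 0.990 CPM in control and 0.200, 0.614 and 0.268 CPM in deletion libraries (-2.15 ± 0.46). The highest deletion library, 211, stayed below control 220. Dnah9, another outer arm heavy chain gene, had 0.954, 1.54 and 0.880 CPM against 0.380, 0.329 and 0.357 CPM (-1.65 ± 0.36), and here the deletion libraries were close to each other. The intermediate chain gene Dnaic2 had 2.88, 3.19 and 1.5 CPM against 1.28, 0.789 and 1.03 CPM (-1.29 ± 0.32), with control 220 nearer to the deletion libraries than to the other controls. Armc4, which docks the outer arm, had 1.37, 1.29 and 0.836 CPM against 0.360, 0.153 and 0.134 CPM (-2.41 ± 0.45). Its groups were the farthest apart of the outer arm genes. Dnah11, Dnaic1 and the docking gene Ccdc114 were not called, with fold changes of -1.10, -1.06 and -0.42. For Dnah11, control 220 (1.56 CPM) lay just above deletion libraries 208 and 211 (1.5 and 1.53 CPM).

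Of 9 inner dynein arm genes (median -1.54) 5 were called lower, and these 5 fell into an abundant and a scarce set. Dnah1 and Dnah2 encode inner arm heavy chains and had the highest levels of the dynein heavy chain genes per kilobase of exon. Dnah1 (chr14:31260375-31323896) had 20.3, 20.4 and 20.7 CPM in control and 15.5, 14.2 and 13.7 CPM in deletion libraries (-0.50 ± 0.08). Dnah2 had 18.7, 17.2 and 16.9 CPM against 11.2, 11.7 and 12 CPM (-0.60 ± 0.09). Both were level across the 3 controls, control 220 included, and all deletion libraries lay well below them. The scarcer inner arm genes among these 5 followed the stepped pattern instead. Dnah3 (chr7:119922671-120095280) had 1.25, 2.53 and 0.616 CPM against 0.120, 0.197 and 0.134 CPM (-3.27 ± 0.55), a ratio of control to deletion means of 9.74, and Dnah10 had 2.96, 3.84 and 1.61 CPM against 0.961, 0.811 and 0.692 CPM (-1.77 ± 0.32). Dnali1, a light intermediate chain, had 2.17, 2.43 and 1.36 CPM against 0.661, 0.526 and 0.313 CPM (-1.98 ± 0.35). In these 3 genes control 220 was the lowest control and still lay above every deletion library. Dnah3 shares 1506 exon bases (10.5% of its exon length) with Lyrm1 on the opposite strand, and the strand setting of the counts is not given in the sources used here. Dnah6 and Dnah12 had fold changes of -2.36 and -1.54 but were not called. Dnah6 stood at 2.44, 4.85 and 0.792 CPM in control and 0.280, 1.01 and 0.290 CPM in deletion libraries, so that deletion 211 exceeded control 220. Dnah7a and Dnah7b, near-identical copies between which reads can be split, had fold changes of -0.09 and -0.26. Dnah7b stood at 8.35, 9.62 and 7.99 CPM against 7.93, 7.78 and 6.01 CPM, with control 220 and deletion 208 almost level.

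**Figure D2:**
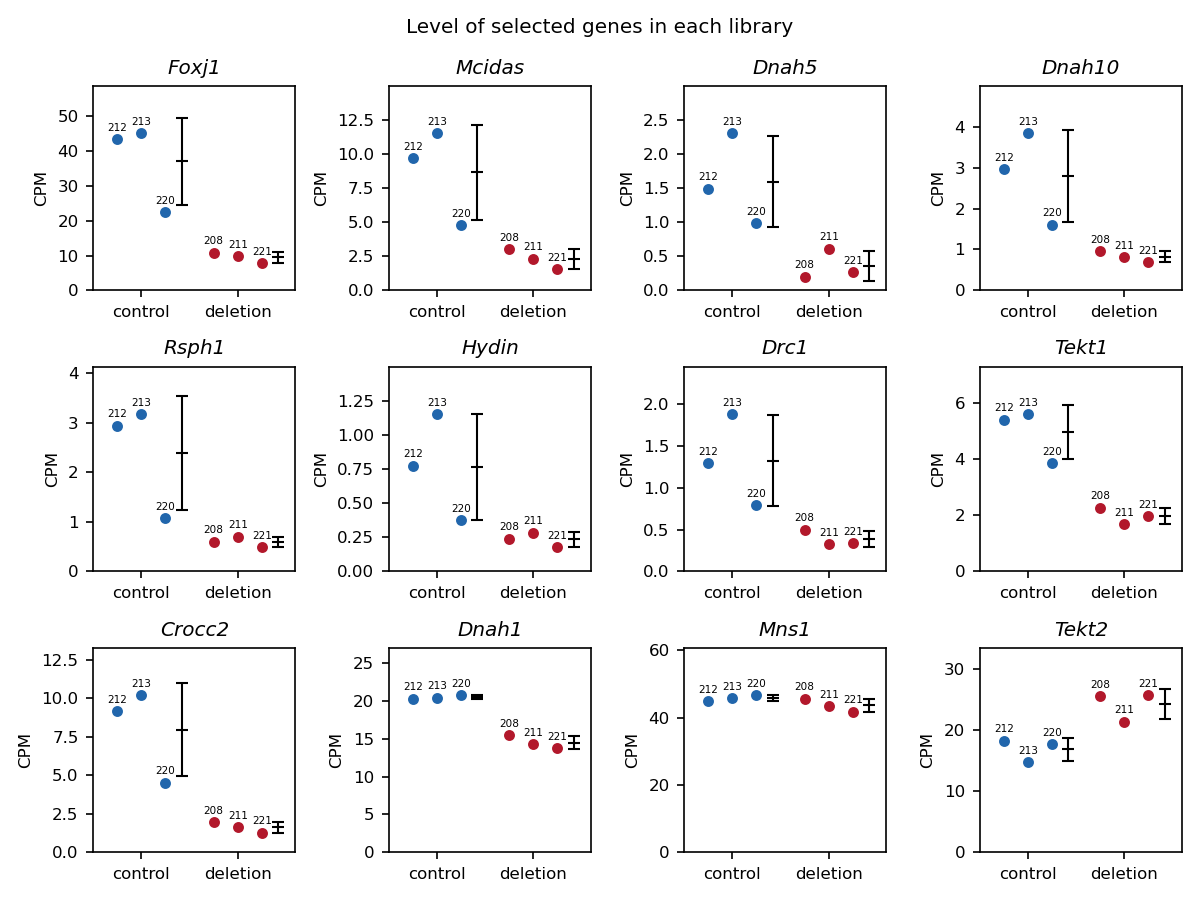
Level in CPM (vertical axis, linear and starting at 0, scaled for each gene) of 12 genes by group (horizontal axis), each point a library with its number, and the black bar the mean with SD over 3 libraries. Foxj1, Mcidas and most axoneme genes step down from controls 212 and 213 through 220 to the deletion libraries, Dnah1 has level controls, Mns1 hardly moves and Tekt2 is higher in deletion libraries.

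Radial spoke head genes split in the same way. Rsph1 stood at 2.94, 3.17 and 1.08 CPM in control and 0.601, 0.701 and 0.491 CPM in deletion libraries (-2.0 ± 0.40). Rsph4a stood at 2.46, 2.83 and 1.5 CPM against 0.861, 0.635 and 0.647 CPM (-1.66 ± 0.30). In both genes all deletion libraries lay below control 220, the lowest control. Another head gene, Rsph9, had overlapping groups and a fold change of -0.13, and the spoke gene Ropn1l one of -1.06 without a call. Of 5 central pair genes only Spef2, a projection protein, was called, at 1.85, 1.64 and 1.03 CPM against 0.861, 0.438 and 0.469 CPM (-1.35 ± 0.36). Its deletion library 208 reached 0.861 CPM, close to control 220 at 1.03 CPM. Hydin, the large central pair protein whose promoter stretch is shown above, stood at 0.775, 1.15 and 0.374 CPM against 0.240, 0.285 and 0.179 CPM without a call (-1.70), and Spag16 had a fold change of -1.08. Spag17 differed from these, with 3.93, 4.22 and 2.38 CPM against 3.40, 4.95 and 4.55 CPM and a fold change of 0.29. It shares 820 exon bases (9.66%) with Wdr3 on the opposite strand, which had a mean of 52.2 CPM in control and 55.0 CPM in deletion libraries. Stk36, a kinase of the hedgehog pathway that also acts at the central pair, stood at 18.9, 20.1 and 19.3 CPM against 22.1, 18.5 and 19.7 CPM (0.05), with no separation of the groups.

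The ruler proteins Ccdc39 and Ccdc40 set the repeat along the doublet. Ccdc40 stood at 8.31, 9.46 and 6.40 CPM in control and 4.67, 5.92 and 4.78 CPM in deletion libraries and was called lower (-0.66 ± 0.17). Ccdc39 stood at 12.6, 15.4 and 9.24 CPM against 9.25, 9.14 and 6.56 CPM (-0.58) and was not called, and deletion 208 (9.25 CPM) and control 220 (9.24 CPM) were almost level. Its exons share 1256 bases (16.9%) with Ttc14 on the opposite strand. Drc1, of the nexin-dynein regulatory complex, stood at 1.29, 1.88 and 0.792 CPM against 0.501, 0.329 and 0.335 CPM (-1.76 ± 0.39), with control 220 above all deletion libraries. Ccdc65 and Ccdc113 had fold changes of -0.90 and -1.43 without a call.

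The tektins went in opposite directions. Tekt1 (chr11:72344722-72362442), a filament protein inside the doublet wall, stood at 5.42, 5.62 and 3.87 CPM in control and 2.28, 1.69 and 1.96 CPM in deletion libraries (-1.33 ± 0.20). Tekt4 stood at 0.874, 0.707 and 0.220 CPM against 0.1, 0.0657 and 0.134 CPM (-2.57 ± 0.60), with 3 to 6 counts a library behind each deletion value. Tekt2 (chr4:126322121-126325688) stood at 18.3, 14.7 and 17.7 CPM against 25.6, 21.4 and 25.7 CPM and was the only one of the 45 called higher (0.52 ± 0.11). The call was lost without 213 or 208. Its controls did not separate by sex markers, since 213 was the lowest and 212 the highest. Tekt2 shares 396 exon bases (20.8%) with Gm12945 on the opposite strand, which had 0.167 CPM in control and 0.401 CPM in deletion libraries. In every library the count of Tekt2 was not whole, as arises when a counter divides reads among transcripts. The same held for Dnah11, Dnah7a, Dnah7b, Spag17, Ccdc39, Mns1 and Cdhr4. Of these 8 tested genes 0 were called lower, against 19 of the 30 with whole counts in every library. Enkur, which lies inside the doublet, stood at 1.79, 2.10 and 0.726 CPM against 0.240, 0.438 and 0.134 CPM (-2.50 ± 0.50). Mns1, another inner doublet protein, was the most abundant of the 50 genes and hardly moved, at 44.8, 45.7 and 46.7 CPM against 45.7, 43.5 and 41.8 CPM (-0.07). Of its exon length 53.0% is shared with Tex9 on the opposite strand, and how reads in the shared stretch were assigned is not given. Tex9 had 24.2 CPM in control and 25.4 CPM in deletion libraries.

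Among assembly and energy genes, Zmynd10, needed to preassemble dynein arms in the cytoplasm, stood at 3.78, 4.89 and 1.56 CPM in control and 0.981, 1.21 and 0.982 CPM in deletion libraries (-1.69 ± 0.37). The adenylate kinase gene Ak7, with a forkhead core in its promoter, stood at 1.31, 0.849 and 0.616 CPM against 0.340, 0.175 and 0.335 CPM (-1.70 ± 0.43). Deletion libraries lay below every control for both genes. The related Ak8 had a fold change of -1.19 without a call. Crocc2 (chr1:93168725-93231072), a rootletin-like gene, stood at 9.16, 10.2 and 4.53 CPM against 1.96, 1.64 and 1.27 CPM (-2.29 ± 0.31), a mean of 7.97 ± 3.02 CPM in control against 1.63 ± 0.35 CPM in deletion libraries (SD, n = 3 each). Control 220 was 2.79 times the deletion mean, and with the sex markers as a covariate the change was -1.47. The gene Ccdc187 stood at 4.01, 4.63 and 2.64 CPM against 0.741, 1.42 and 0.915 CPM (-1.88 ± 0.29). The dynein light chain gene Dynlrb2 stood at 2.29, 2.75 and 0.836 CPM against 0.461, 0.482 and 0.112 CPM (-2.46 ± 0.56). Controls 212 and 213 exceeded control 220 in each of these 3 genes, and control 220 exceeded all deletion libraries.

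The abundant genes of the remaining set had fold changes near 0. Tppp3, a tubulin polymerization protein of many tissues, stood at 18.1, 17 and 12 CPM against 14.7, 17.1 and 12.3 CPM (-0.10). Mlf1, with both motifs in its promoter, stood at 9.86, 9.28 and 8.82 CPM against 8.63, 6.75 and 7.37 CPM (-0.30), and the cadherin-related Cdhr4 at 7.95, 7.44 and 7.42 CPM against 6.05, 4.95 and 7.77 CPM (-0.28). Groups overlapped for Tppp3 and Cdhr4 and were separate but close for Mlf1, and none of these genes was called. Spa17 had a fold change of -0.43, with 36.9% of its exon length shared with Siae. Of the 5 genes that failed the filter, Lrrc6, a dynein assembly gene, had 0.497, 0.485 and 0.0660 CPM in control and 0.160, 0.0438 and 0.0223 CPM in deletion libraries. Fam183b had 19, 15 and 4 counts against 3, 7 and 0, and Tctex1d4 had 5, 0 and 2 counts against 0 in every deletion library. Cdhr3 had 7, 7 and 1 counts against 0, 5 and 8, and Sntn, a marker of the ciliary tip, was at 0 in all 6 libraries. The floor of 3 counts stands at 0.0596 to 0.0670 CPM, a limit that covers counting error only.

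Per kilobase of exon, genes called lower were found over a range of levels below the highest. The highest control means were those of Tekt2 (8.89 CPM per kilobase), Mns1 (8.53), Tppp3 (8.50) and Mlf1 (5.42), genes with no lower call. Dynlrb2 and Tekt1, both called lower, had 3.52 and 3.07 CPM per kilobase in control and 0.632 and 1.22 in deletion libraries. Rsph1 went from 1.75 to 0.436 CPM per kilobase. Dnah1 and Dnah2 had 1.57 and 1.17 CPM per kilobase in control, whereas the other dynein heavy chains ranged from 0.0556 (Dnah7a) to 0.433 (Dnah7b). Hydin was at 0.0425 CPM per kilobase in control and 0.0130 in deletion libraries.

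The difference among controls had the same direction as the difference between groups. Control 220 was the lowest control in 38 of the 45 genes (84.4%), against 36.5% of all tested genes. Controls 212 and 213 both exceeded 220 by over 1.5 times in 25 of the 45 (55.6%), against 4.01% of all tested genes. Every deletion library was below control 220 in 33 of the 45 (73.3%), against 29.9%. Dnah6 had the widest gap among controls, with a mean of 212 and 213 that was 4.6 times control 220, whereas this ratio was 0.981 for Dnah1. Dnah3 had the widest gap between control 220 and the deletion mean, at 4.10 times. Spag17 was at the other end, with control 220 at 0.552 times the deletion mean. The sex markers and globin ratio of 212 and 213 moved with these levels, and their part in the result was not tested beyond the fits above.

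**Figure D3:**
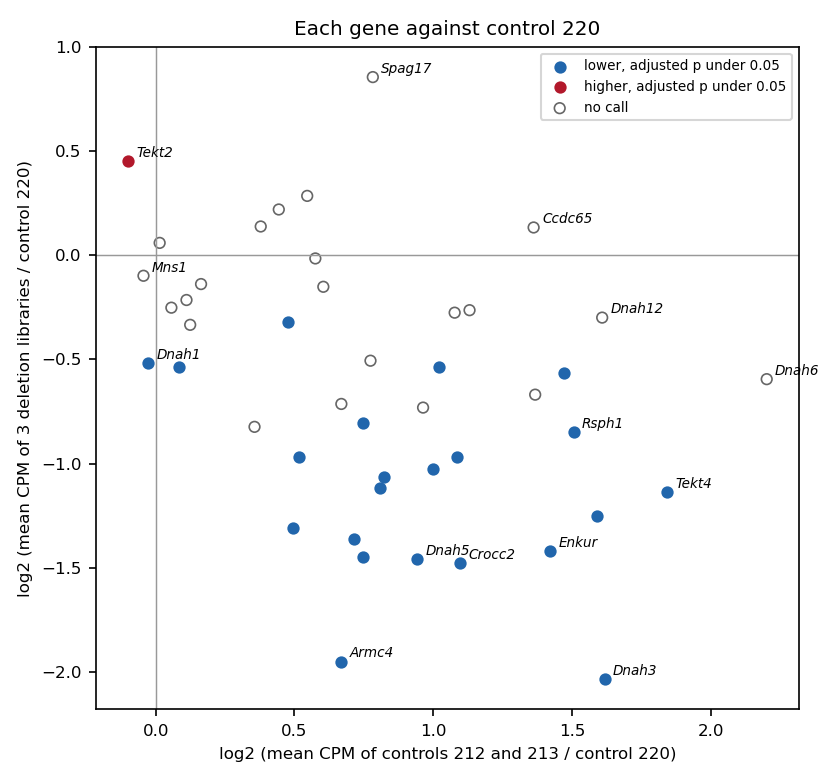
Each tested cilium gene by the log2 ratio of the mean of controls 212 and 213 to control 220 (horizontal axis) and of the mean of 3 deletion libraries to control 220 (vertical axis), filled points being genes called lower (blue) or higher (red). Both axes share control 220, and Dnah1 lies at 0 on the horizontal axis and below 0 on the vertical axis, Dnah6 lies farthest to the right, Dnah3 lowest, and Spag17 highest.

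Other axoneme genes were listed by function, though with earlier results of these data known, so their count is no independent evidence. Of 62 such genes 53 were tested, and edgeR called 22 lower (3.37% of all tested genes were), the rest not, and 0 higher, with 1 higher at an unadjusted p under 0.05, 1 called higher by DESeq2 and 0 by limma voom. Fold changes were below 0 in 48 of the 53, with a median of -0.92, and 35 lay lower in every deletion library than in every control, against 13.5% of all tested genes. Their mean log2 level relative to control 220 was 0.46 and 0.60 in 212 and 213 and -0.54, -0.59 and -0.70 in the deletion libraries. Wdr63, of an inner arm complex, stood at 1.35, 1.66 and 0.968 CPM in control and 0.240, 0.0876 and 0.0670 CPM in deletion libraries (-3.28 ± 0.48, edgeR adjusted p = 0.00327). Pifo, also of this list, stood at 1.51, 2.49 and 1.08 CPM against 0.0801, 0.329 and 0.134 CPM (-3.22 ± 0.51, edgeR adjusted p = 0.00491). The listed genes Cfap206 and Nme5 changed by -2.49 ± 0.38 and -1.48 ± 0.24 (edgeR adjusted p = 0.00448 and 0.00557). For these 4 genes, groups did not overlap. Without 213, 208, 211 and 212, edgeR called 6, 9, 10 and 11 lower, fits in which 0.802%, 1.25%, 1.58% and 2.30% of all tested genes were. With the sex markers as a covariate edgeR called 0 of the 53 lower, and 0.332% of all tested genes. The median of the 53 was then -0.61. In that fit 21 were lower at an unadjusted p under 0.05, a count without a share of all tested genes beside it.

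Some known regulators of multiciliated cells stepped down with the axoneme genes, and others did not. Foxj1 stood at 43.4, 45.1 and 22.5 CPM in control and 10.9, 9.77 and 7.77 CPM in deletion libraries (-1.97 ± 0.32, edgeR adjusted p = 0.0315), and with the sex markers as a covariate its change was -1.25 (edgeR adjusted p = 0.0117). Mcidas stood at 9.70, 11.5 and 4.78 CPM against 3.02, 2.32 and 1.56 CPM (-1.91 ± 0.38, edgeR adjusted p = 0.0290), and with that covariate at -1.05 (edgeR adjusted p = 0.161). Both showed the step from 212 and 213 to 220 to the deletion libraries, and both lost the call when any library other than control 220 was left out (edgeR adjusted p 0.0749 to 0.136 and 0.0602 to 0.135). Deup1, which builds centrioles in multiciliated cells, stood at 13.5, 13.4 and 6.16 CPM against 2.24, 2.04 and 1.63 CPM (-2.48 ± 0.32, edgeR adjusted p = 0.00502). Its call was kept whichever single library was left out, and with the covariate too (edgeR adjusted p = 0.0108). For every gene here, the fit with the covariate compares the groups only through control 220. Ccno, needed for centriole docking, stood at 14.2, 12.6 and 6.76 CPM against 3.74, 2.89 and 2.86 CPM (-1.82 ± 0.27, edgeR adjusted p = 0.00727, and 0.0508 without 211). Gmnc, upstream of Mcidas, had a fold change of -0.65 ± 0.19 without a call (edgeR adjusted p = 0.0600), and Rfx2 and Rfx3, factors that bind the X-box, had overlapping groups with fold changes of -0.23 and 0.05 (edgeR adjusted p = 0.306 and 0.729). Of 20 tested genes of multiciliated fate and centrioles, 7 were called lower (3.37% of all tested genes were), with a median of -0.22.

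Lists of the primary cilium had medians near 0. Of 37 genes of intraflagellar transport and the BBSome, the cargo adaptor of cilia, edgeR called 1 lower (Bbs2, -0.42 ± 0.10), with a median of -0.04. Their mean log2 level relative to control 220 was 0.04 and 0.00 in 212 and 213 and -0.04, -0.08 and -0.03 in the deletion libraries. Of 24 transition zone genes 3 were called lower (Rpgrip1l, Invs and Mks1), with changes of -0.28, -0.25 and -0.34 and a median of -0.08. Over all tested genes 3.37% were called lower. Deletion libraries all lay below the controls in 12 of these 24 and in 6 of the 37 transport genes, against 13.5% of all tested genes, and 10 and 6 were lower at an unadjusted p under 0.05. The counts at an unadjusted p have no share of all tested genes beside them. DESeq2 called 8 transition zone and 4 transport genes lower, where it called 5.38% of all tested genes lower. Each of the 4 named edgeR calls was lost without 213 or 212.

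**Figure D4:**
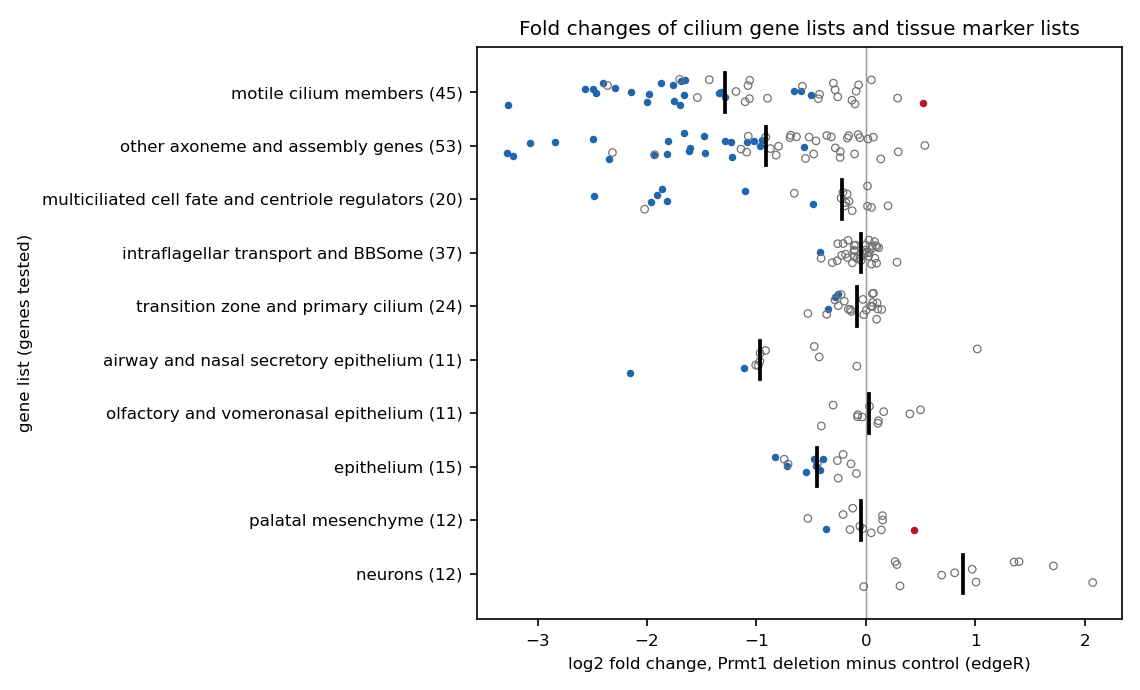
Log2 fold change, deletion minus control (horizontal axis), of each tested gene in 10 lists (vertical axis, number tested in parentheses), with blue for genes called lower, red for higher, open points for no call and a black bar at the median. The medians of the motile cilium genes (-1.29) and other axoneme genes (-0.92) lie left of 0, those of intraflagellar transport (-0.04) and the transition zone (-0.08) lie near it, and that of epithelium (-0.44) lies between.

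Markers of epithelium, in which multiciliated cells arise, had fold changes below 0 in 15 of 15, as did 9627 of all 19284 tested genes. Of the 15 edgeR called 7 lower and the rest not, where 3.37% of all tested genes were called lower. The median of the 15 was -0.44. Their summed level ranged from 1643 to 1899 CPM in control and from 1144 to 1423 CPM in deletion libraries. Epcam, an epithelial adhesion protein, stood at 114, 104 and 95.9 CPM against 74.8, 79.3 and 80.2 CPM (-0.42 ± 0.07, edgeR adjusted p = 0.00432), and the basal keratin gene Krt14 at 393, 431 and 378 CPM against 205, 226 and 244 CPM (-0.83 ± 0.07, edgeR adjusted p = 0.000304). With the sex markers as a covariate, 2 of the 15 were called lower, where 0.332% of all tested genes were, and the median was -0.27. In that fit Krt14 stood at -0.75 (edgeR adjusted p = 0.0130) and Epcam at -0.30 without a call (edgeR adjusted p = 0.128). Relative to control 220, the mean log2 level of the epithelial markers was 0.26 and 0.14 in 212 and 213 and -0.44, -0.32 and -0.17 in the deletion libraries. The cilium genes minus these markers stood at 0.44 and 0.67 in 212 and 213 and at -0.09, -0.21 and -0.63 in the deletion libraries, relative to control 220. On this scale deletion libraries 208 and 211 lay within 0.21 of control 220, and 221 was farther below. The cilium mean holds all 45 tested genes, those that hardly moved included. Its prior count of 2 also shrinks the differences of scarce genes. The part of epithelial content in the cilium gene result was not tested beyond this.

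Secretory, olfactory and choroid plexus markers were also read, since nasal or brain tissue carries motile cilia. Of 11 tested genes listed for airway and nasal secretory epithelium, edgeR called 2 lower, where 3.37% of all tested genes were called lower. These were the lipid-binding protein gene Sec14l3 (2.66, 3.36 and 1.69 CPM against 0.681, 0.679 and 0.357 CPM, -2.16 ± 0.34, edgeR adjusted p = 0.00459) and the antimicrobial lectin gene Reg3g (-1.11 ± 0.24, edgeR adjusted p = 0.0183). Sec14l3 stepped from 212 and 213 through 220 to the deletion libraries, as the cilium genes did. Whether it marks secretory cells here was not tested. Reg3g was not called without any 1 of 212, 213, 208 and 211. The median of the 11, -0.97, turned to 0.13 with the sex markers as a covariate. The summed level of all 16 was 67.5 to 136 CPM in control and 55.2 to 67.5 CPM in deletion libraries, and Scgb1a1, Scgb3a1 and Tff3 were at 0 in all libraries. Of 11 tested olfactory markers edgeR, DESeq2 and voom each called 0, with 0 at an unadjusted p under 0.05, and the summed level of all 14 was 71.0 to 73.7 CPM in control and 70.4 to 73.8 CPM in deletion libraries. Of 7 tested choroid plexus markers 1 was called higher (Tmem72, 1.27, not called without any 1 of 5 libraries) and 1 lower (Clic6, -0.80, not called without 213), with Ttr at no more than 0.307 CPM in any library. Palatal mesenchyme markers were abundant in every library, with a summed level of 11250 to 13450 CPM in control and 9803 to 11000 CPM in deletion libraries. Of 12 tested 1 was called higher and 1 lower. Over all tested genes 7.01% were called in either direction.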

How the data were processed

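The values the authors deposited are estimated counts per gene symbol, not normalized, in a table of 49492 genes by 6 columns. The submitters' processing notes name mm10 as the genome build and, as tools, STAR 2.4.1d, CASAVA 1.8.2 and Partek. Which annotation, strand setting or filter was applied is not given in the sources used here. Column names give the group and a number that no label holds, so columns were assigned to groups and not to labelled samples, and 0 columns were without a group.

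Counts were rounded and filtered with filterByExpr (minimum count 10, minimum total 15), leaving 19284 genes, and scaled by TMM. Deletion was tested against control with edgeR 4.0.16's quasi-likelihood F test in R 4.3.3, without covariates, with Benjamini-Hochberg adjustment over all tested genes and a threshold of 0.05. The script was tested on simulated data. Alternatives were DESeq2 size factors, upper-quartile factors, DESeq2 1.42.0, limma 3.58.1 voom, no filter, a CPM filter, each library left out, and embryo sex read from Xist and Y-linked genes as a covariate. Leaving out controls 212 and 213 together was added after seeing the data. Counts of genes at an unadjusted p are given without the share of all tested genes at that p. Every pair of libraries in a group differed by more than sampling noise. Nothing in the labels says that each library is a separate embryo, so the p-values reflect only how far these libraries spread, which may be technical.

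The members and all lists were chosen with earlier results of these data known. Values by library are given for genes called and for the 12 cilium genes of highest mean CPM, and each list is represented by up to 4 genes of smallest p. Prmt1, Foxj1, Mcidas, Gmnc, Ccno, Rfx2, Rfx3, Epcam and Xist were named regardless of result, and other genes named were chosen after their values were seen. Deup1 is listed in the table as Ccdc67. Exon lengths come from GENCODE M21 and promoters from RefSeq, both on GRCm38, the assembly that mm10 names. Windows were not found for Armc4, Dnah3, Lrrc6, Rsph1, Rsph4a and Tppp3.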

Additional observations from a re-analysis of the deposited data

How the results depend on the processing

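No paired analysis was possible because the columns carry no replicate number of the labels. The number of cilium genes called lower, 22 of 45 tested, was 27 with DESeq2, 25 of 49 with no filter, 13 with limma voom, 13 of the 28 left by the CPM filter, 6 to 29 of 45 to 47 with a library left out, 1 with the sex covariate and 0 without controls 212 and 213. The single higher call, Tekt2, became 0 without 213, without 208, with the sex covariate and without controls 212 and 213 (0 to 1 with a library left out). The median of the cilium genes moved from -1.29 to -0.62 under the CPM filter, which keeps the more abundant genes, to -0.56 with the sex covariate and to -0.56 without controls 212 and 213, and ranged from -1.55 to -1.18 with a library left out. The other axoneme genes called lower went from 22 to 6 to 24 with a library left out, and to 0 with the sex covariate and 0 without controls 212 and 213, where their median was -0.56. DESeq2 called 1 of them higher. Over all genes, 1352 calls became 2125 with DESeq2, 356 to 1872 with a library left out, 129 with the sex covariate and 89 without controls 212 and 213. In the fit with the sex covariate and in that without controls 212 and 213, groups are compared only through control 220, and the cause of the lost calls was not tested. No fold change of a gene named here reversed its sign past the threshold. Counting error limits Tekt4, Dnah3, Lrrc6, Fam183b, Tctex1d4, Cdhr3 and Sntn, with under 10 counts in every deletion library.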

Other observations

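Genes outside the 50 whose levels ran most nearly in parallel with the mean of the cilium genes were sought among 1246 tested genes. These had a mean log2 CPM of 1 or more, which leaves out scarce genes. Their SD over libraries met a minimum set below that of the cilium gene mean. The 10 with the highest Pearson r over the 6 libraries, which share their depth and their group difference, were Cdh7 (0.995), Foxj1 (0.994), Pyroxd2 (0.994), Myb (0.993), Ubxn10 (0.993), Cfap45 (0.993), Ttc9 (0.992), Myo5c (0.991), Deup1 (0.990) and Mcidas (0.989). Foxj1, Myb, Deup1 and Mcidas are known regulators of multiciliated cells, and Cfap45 is a protein of the doublet microtubule. Cdh7, a cadherin, stood at 5.62, 5.56 and 4.0 CPM in control and at 2.98, 3.02 and 2.48 CPM in deletion libraries. Ubxn10, an adaptor that acts in cilium formation, stood at 3.76, 3.74 and 2.16 CPM against 1.46, 1.56 and 1.41 CPM. Both show the same step between controls 212 and 213 and control 220. These likenesses are a description over 6 libraries.

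Neuronal markers had fold changes above 0 in 11 of 12, as did 9612 of all 19284 tested genes. Of the 12 edgeR called 0, where 3.65% of all tested genes were called higher. At an unadjusted p under 0.05, 7 were higher, a count without such a share. DESeq2 called 5 and voom 2 higher, fits in which 2125 and 1171 of all tested genes were called in either direction. The median fold change of the 12 was 0.89 (log2), and 0.66 with the sex markers as a covariate, where 0 were called. Their summed level was 122 to 131 CPM in control and 268, 189 and 155 CPM in deletion libraries 208, 211 and 221.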
